A study of Mus musculus with 6 samples.

Results

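The genes described here encode the subunits of the proteasome and its activators. They were taken from the gene tables by symbol (Psma, Psmb, Psmc and Psmd followed by a number, and Psme1 to Psme4), which gave 43 of the 19458 genes listed. RNA-seq had been run on the gastrocnemius, a muscle of the calf, of C57BL/6 mice aged 9 weeks, with 3 libraries of tmem182-/- muscle and 3 of wild-type muscle. Tmem182 encodes a membrane protein of striated muscle, and the comparison asks which transcripts differ when it is missing. The labels carry 2 inconsistencies: source fields of knockout libraries 2 and 3 read tmem183-/- and tmem184-/- while the genotype field reads tmem182-/- for all 3, and the extraction text speaks of cultured muscle cells while tissue and source give whole muscle. How the deletion was made and whether the libraries are from different mice is not in the labels; the p-values therefore rest on the spread among these samples alone, and some of it may be technical.

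The proteasome is the barrel-shaped protease that degrades ubiquitin-tagged proteins. Its 20S core is built of outer alpha rings and inner beta rings, and the 19S particle on its ends binds, unfolds and feeds in the substrate. Interferon induces 3 alternative catalytic subunits that replace the standard ones in newly built cores, the immunoproteasome, together with the PA28 activator. In muscle this machinery removes contractile proteins that the atrophy ubiquitin ligases have tagged. By role, the 43 genes were 7 alpha and 7 standard beta subunits, 6 ATPases and 11 other subunits of the 19S particle, 3 chaperones of 19S assembly that carry Psmd symbols, the 3 immunoproteasome subunits, PA28 alpha and beta, PA28 gamma with PA200, and 2 core subunits known from single tissues.

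Tmem182 checked the labels: it was at 6.23, 4.30 and 2.17 FPKM with the deletion and 147.48, 121.39 and 120.97 FPKM in wild type; edgeR fitted a difference of -5.02 in log2 (SE 0.30), with adjusted p = 0.00391. Muscle was plain in every library, with creatine kinase Ckm at 12708 FPKM or more. Knockout library 1 stood apart. Its TMM factor was 1.19 against 0.933 to 1.04 in the other 5, the 7 fast-fibre markers summed to 78679.6 FPKM there against at least 100734 elsewhere, and the 10 immune cell markers summed to 52.66 FPKM against 13.1 to 23.1. Fewer cells of a type and less RNA per cell cannot be told apart in such bulk samples.

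No proteasome gene passed the test for a difference between the genotypes. Of the 43 members 42 could be tested, and 0 passed edgeR's quasi-likelihood test at an adjusted p of 0.05, where 0.00783% of all 12774 genes did; that was Tmem182 alone. An unadjusted p under 0.05 was reached by 0 of the 42, against 3.55% of all genes tested. The smallest adjusted p among them was 0.994, and over all 16 alternative fits it was at lowest 0.625. DESeq2 (0.047% of all genes called) and limma on FPKM also called 0 members. Fitted log2 fold changes, knockout minus wild type here and throughout, ran from -0.30 for Psmb8 to 0.27 for Psmd10, with a median of -0.01 over the 42 and 0.0046 over all genes tested. Members with a higher and a lower fitted mean in the knockout numbered 17 and 25.

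The size of change that these libraries leave room for was small for most members. For 37 of the 42 the 95% interval of the difference lay within 1.5-fold in either direction, against 57.4% of all genes tested. The members were also higher in level, with a median of 53.4 FPKM over the 43 against 4.64 FPKM over all genes tested. The part of level in the width of the intervals was not tested. The 5 members with wider intervals were Psmb8, Psmb9, Psmb11, Psmd8 and Psmd10. Intervals of all 42 lay within 2-fold, as did those of 10642 of the 12774 genes tested.

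**Figure D1:**
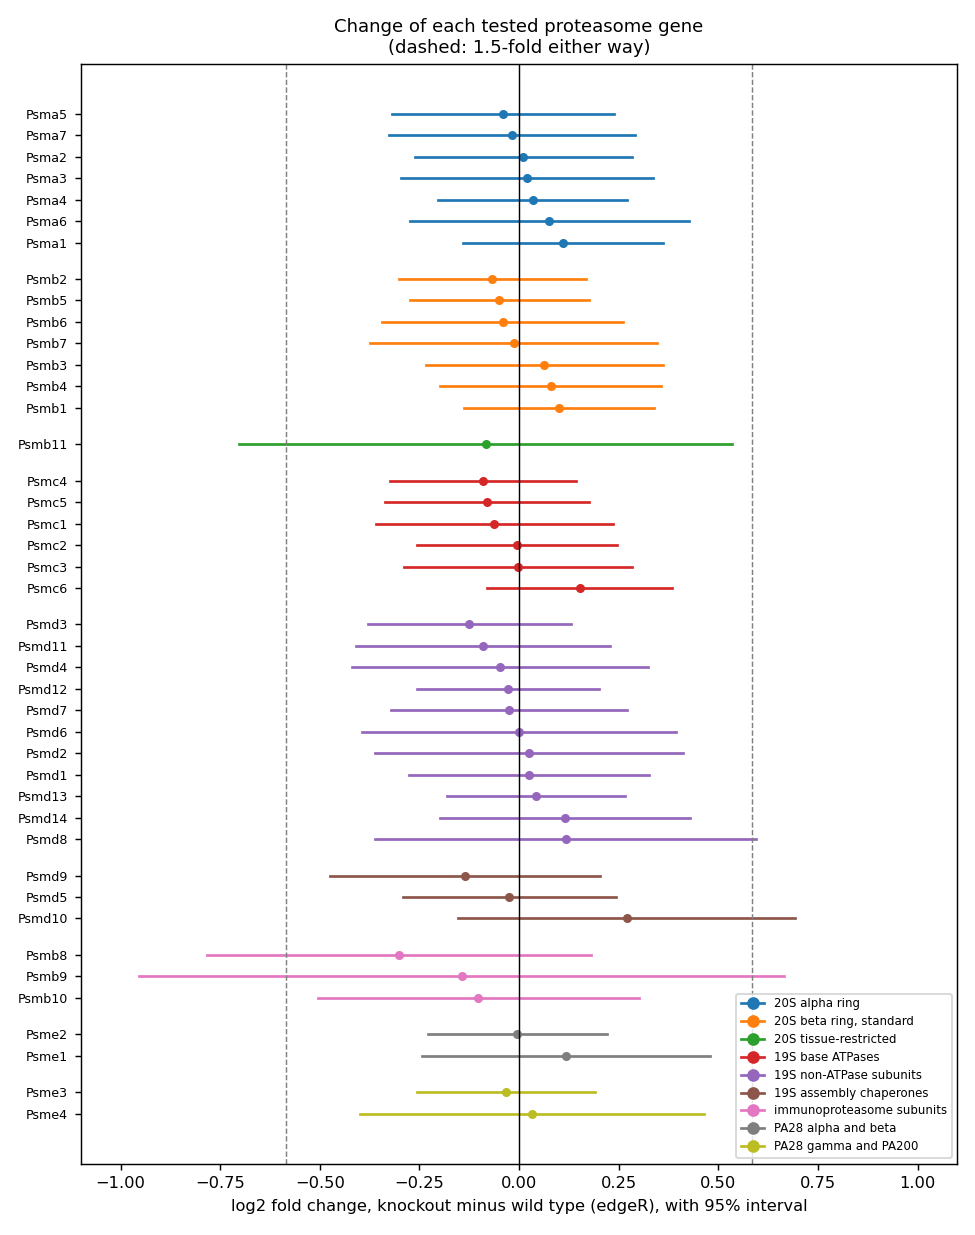
Fitted log2 fold change (knockout minus wild type, x axis) of the 42 tested members with 95% intervals, coloured by role, dashed lines at 1.5-fold. Every interval spans 0, and the widest belongs to Psmb9, from -0.95 to 0.66.

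The alpha ring subunits form the gate through which substrates enter. All 7 were between 22.28 and 69.43 FPKM in every library, their log2 fold changes lay between -0.04 and 0.11, and 0 passed the test. Psma6 had the highest level of the ring, at 61.51, 69.43 and 68.73 FPKM with the deletion and 58.85, 62.79 and 60.98 FPKM in wild type. The knockout range overlapped that of wild type through library 1 (log2 fold change 0.08, SE 0.15). Psma5 was lowest, at 23.84, 24.26 and 23.36 against 23.35, 24.92 and 22.28 FPKM, with its groups interleaved (log2 fold change -0.04, SE 0.12). Psma1 had the smallest unadjusted p of the ring, 0.340, and was at 38.18, 30.59 and 32.45 FPKM against 30.27, 26.78 and 32.15 FPKM. On FPKM its high value was that of knockout library 1, which was highest on FPKM for 62.2% of all genes tested. After TMM scaling wild-type library 3 was highest. The fitted log2 fold change of Psma1 was 0.11, and 0.12 without knockout library 1.

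The standard beta ring holds the 3 catalytic subunits Psmb5, Psmb6 and Psmb7, whose activities are called chymotrypsin-like, caspase-like and trypsin-like, and 4 structural subunits. None of the 7 passed the test, and their log2 fold changes lay between -0.07 and 0.10. Psmb7 had the highest level of all 43 members, at 138.91, 144.79 and 160.91 FPKM with the deletion and 136.5, 145.02 and 146.03 FPKM in wild type, giving a log2 fold change of -0.01 (SE 0.15). Psmb5 was at 78.28, 70.94 and 73.45 FPKM against 77.77, 73.97 and 69.02 FPKM. Psmb6 was at 83.75, 74.81 and 87.98 FPKM against 80.68, 87.4 and 75.34 FPKM. Groups of all 3 catalytic subunits overlapped, with SEs of 0.10 for Psmb5 and 0.13 for Psmb6 around log2 fold changes of -0.05 and -0.04. Psmb1, a structural subunit and the lowest of the ring, was at 66.39, 63.27 and 59.79 against 57.0, 58.81 and 53.27 FPKM, so that on the FPKM scale every knockout library exceeded every wild-type library. Psmb4, also structural, was likewise separate, at 73.12, 72.12 and 72.77 against 65.07, 69.9 and 63.0 FPKM.

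That separation depended on the scale. On FPKM, 6 of the 42 tested members (Psma4, Psmb1, Psmb4, Psmd1, Psmd14 and Psmd10) lay wholly above wild type and 0 below (Psma4 and Psmd1 are named only for this, after their values were seen), where 5.86% of all genes tested lay above and 1.7% below (7.55% in all). After TMM scaling 0 of the 42 were separate in either direction, where 9.18% of all genes tested were (4.67% higher and 4.51% lower). The fitted log2 fold changes of Psmb1 and Psmb4 were 0.10 (SE 0.10) and 0.08 (SE 0.12). With library totals in place of TMM the split of members between higher and lower fitted means went from 17 and 25 to 33 and 9, and the median over all genes moved from 0.0046 to 0.08.

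**Figure D2:**
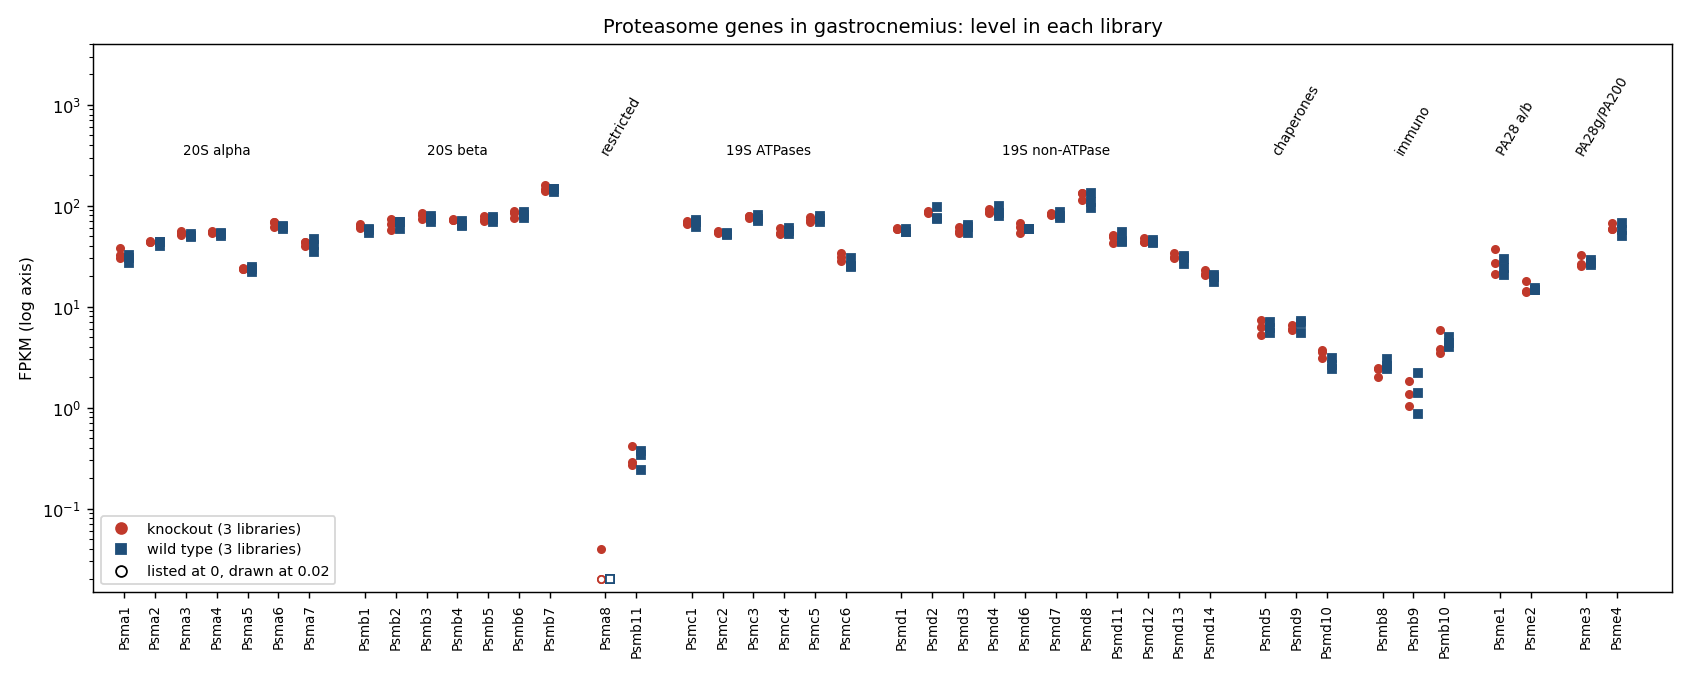
FPKM (log axis) of each of the 43 members in the 3 knockout libraries (circles) and 3 wild-type libraries (squares), in order of role; open symbols are listed at 0. Standard core and 19S subunits lie between 17.59 and 160.91 FPKM, and the immunoproteasome subunits between 0.87 and 5.91 FPKM.

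When proteasome activity falls, the transcription factor Nfe2l1 raises proteasome genes through antioxidant response elements in their promoters, with Nfe2l2 acting on related elements in oxidative stress. Promoters of 36 members were found in RefSeq (GRCm38.p6; 250 bases before and 50 after the start), and 6 of the 36 (16.7%) held the element's core, TGACNNNGC, on either strand, against 14% of the 27025 genes in the table. The 6 windows are shown because they are the stretches of the members' promoters in which this factor's motif is found. They are read on the gene's strand, with the match in capitals, and where the match lies on the other strand it appears as its complement.
Psmb5 (chr14:54618024-54618052, minus strand): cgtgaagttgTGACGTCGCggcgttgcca
Psmb6 (chr11:70525338-70525366, plus strand): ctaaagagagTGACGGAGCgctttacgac
Psmc6 (chr14:45329587-45329615, plus strand): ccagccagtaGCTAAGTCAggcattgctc
Psmd9 (chr5:123228149-123228177, plus strand): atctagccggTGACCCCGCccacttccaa
Psmd12 (chr11:107479278-107479299, plus strand): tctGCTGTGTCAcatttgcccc
Psme4 (chr11:30771758-30771786, plus strand): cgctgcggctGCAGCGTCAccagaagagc
These 6 genes had log2 fold changes from -0.14 (Psmd9) to 0.15 (Psmc6), inside the range of the other members. A match is a description of the letters only. Of the other motifs searched, the NF-Y box CCAAT was in 14 of 36 members (38.9%) and 41.1% of all genes.

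Nfe2l1 itself was at 164.2, 132.11 and 124.75 FPKM with the deletion and 123.41, 132.44 and 121.21 FPKM in wild type, giving a log2 fold change of 0.09 (SE 0.12). Its high value was again that of knockout library 1, and the other 5 libraries overlapped. Of the 10 genes of this control pathway 9 were tested, 0 passed, and 3 had a higher and 6 a lower fitted mean (median -0.03). Those with the smallest p were Syvn1, a ubiquitin ligase of the endoplasmic reticulum, at -0.15 (SE 0.11), and Ddi2, the protease that activates Nfe2l1, at -0.34 (SE 0.27), both log2 fold changes. Without knockout library 1 Ddi2 was at -0.08, and without wild-type library 2 at -0.17.

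The 6 ATPases of the 19S base unfold substrates and open the gate. They lay between 24.43 and 80.95 FPKM, 1 had a higher and 5 a lower fitted mean in the knockout, and 0 passed. Psmc6, the lowest of them, had the smallest unadjusted p of all members, 0.168. It was at 33.75, 28.05 and 30.89 FPKM with the deletion and 30.21, 24.43 and 25.25 FPKM in wild type, and wild-type library 1 fell within the knockout range (log2 fold change 0.15, SE 0.10). Psmc4 differed by -0.09 (SE 0.10, log2), and Psmc3, the most abundant, by -0.0032 (SE 0.12).

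Among the 11 other 19S subunits, which receive ubiquitin chains, remove them and hold the particle together, 5 had a higher and 6 a lower fitted mean and 0 passed. Psmd8, a subunit of the lid, was the most abundant and the most variable of them, at 113.34, 134.16 and 133.51 FPKM with the deletion and 95.96, 135.01 and 107.6 FPKM in wild type. On FPKM wild-type library 2 exceeded all knockout libraries while the other wild-type libraries were below them all. After TMM scaling knockout library 3 (212.9 CPM) was above wild-type library 2 (211.5 CPM). Wild-type library 3 (173.3 CPM) was then above knockout library 1 (143.6 CPM). The fitted log2 fold change was 0.12 (SE 0.21). Psmd14, the deubiquitinase that cuts the chain from the substrate, was the least abundant, at 20.6, 21.0 and 23.11 against 20.36, 19.69 and 17.59 FPKM, which gave a log2 fold change of 0.12 (SE 0.14), just separate on FPKM. Without knockout library 1 Psmd14 reached an unadjusted p under 0.05 (log2 fold change 0.24), where 5.11% of all genes tested did. Its adjusted p there was 0.904. Psmd3, another lid subunit, differed by -0.12 (SE 0.11, log2).

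Subunits that occur once per ring or particle were not equally abundant as transcripts. Across the 31 standard 20S and 19S subunits mean wild-type FPKM, a level per transcript length, spanned 7.42-fold, from 19.2 ± 1.45 FPKM for Psmd14 to 142.5 ± 5.23 FPKM for Psmb7 (SD, n = 3 each). Within the alpha ring the span was 2.59-fold, within the standard beta ring 2.53-fold, among the ATPases 2.82-fold and among the other 19S subunits 5.87-fold. Median wild-type levels were 42.2 FPKM for the alpha ring and 73.4 FPKM for the standard beta ring, and the knockout medians were 44.2 and 74.2 FPKM. The gap between the rings was wider than the gap between the genotypes in either ring.

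Values differed between libraries in an order that genotype did not follow. After TMM scaling (counts per library, CPM, corrected by the TMM factor) knockout library 1 had the lowest value of the 6 libraries for 25 of the 31 standard 20S and 19S subunits and the highest for 0. It was lowest for 27.9% of all genes tested. Knockout library 3 and wild-type library 2 were highest for 14 and 12 of the 31. The median deviation of the 14 standard core subunits from the mean of the 6 libraries was -0.17, 0.08 and 0.14 with the deletion and -0.08, 0.07 and -0.0080 in wild type, on the log2 scale. For the 17 subunits of the 19S particle it was -0.18, 0.09 and 0.08 against -0.07, 0.15 and 0.0088. Core and 19S subunits therefore moved alike between libraries, low in library 1 of each genotype. On FPKM the order was different: knockout library 1 was lowest for 1 of the 31 and highest for 11, where it was highest for 62.2% of all genes tested.

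**Figure D3:**
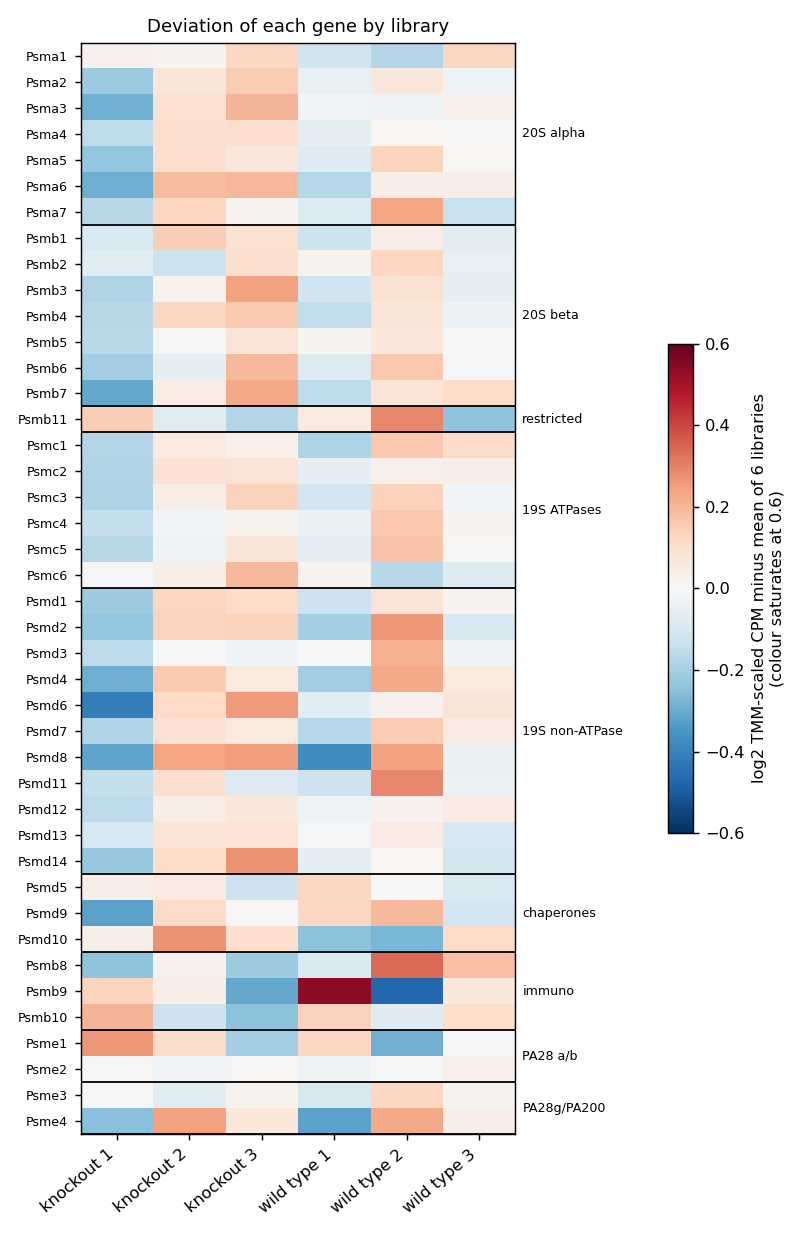
Deviation of each tested member (rows, by role) from its mean over the 6 libraries (columns), in log2 TMM-scaled CPM; blue is low, red is high. Most standard core and 19S rows are blue in knockout library 1, which was lowest for 25 of these 31 genes.

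Markers of other cells also differed between libraries. The 5 Schwann cell markers summed to 301.79, 48.1 and 85.76 FPKM with the deletion and 197.76, 19.49 and 37.16 FPKM in wild type, so both libraries numbered 1 were highest. The 8 slow-fibre markers summed to 2648.74, 1827.26 and 92.46 FPKM against 792.16, 85.78 and 659.57 FPKM. Of the 10 immune cell markers 7 were tested, and 7 had a higher fitted mean in the knockout. An unadjusted p under 0.05 was reached upward by 3 of them, against 2.07% of all genes tested. All 7 were highest in knockout library 1 on FPKM, while of the 3 too low to test Cd3e was highest in knockout library 3 and Cd79a in wild-type library 1. None of the 10 was at 0 in any library. Ptprc, the pan-leukocyte marker, ranged from 0.10 to 0.59 FPKM. Fibro-adipogenic markers summed to 630.53 FPKM in knockout library 1 and 292.72 to 542.27 FPKM elsewhere, endothelial markers to 133.81 against 55.37 to 97.41 FPKM, and adipocyte markers to 263.86 against 84.83 to 154.76 FPKM. Single markers went otherwise. Col1a1 was at 105.28 FPKM in knockout library 1 but 149.8 and 147.61 FPKM in wild-type libraries 1 and 3. Cldn5 was highest in knockout library 2. Gsn gave 304.76 FPKM of the fibro-adipogenic sum in knockout library 1, and Fabp4 199.94 FPKM of the adipocyte sum. The part of these cells in the order of the libraries was not tested. Without knockout library 1 the members with a higher and a lower fitted mean numbered 29 and 13, and 0 passed. Other libraries left out moved this split as well. It was 11 and 31 without knockout library 2 and 10 and 32 without knockout library 3. Without wild-type libraries 1, 2 and 3 in turn it was 14 and 28, 30 and 12, and 19 and 23.

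The immunoproteasome subunits were scarce. Psmb8, which takes the place of Psmb5, was at 2.45, 2.40 and 1.99 FPKM with the deletion and 2.40, 3.02 and 2.61 FPKM in wild type, from 43 to 68 expected counts per library. Psmb9, which replaces Psmb6, was at 1.83, 1.37 and 1.03 against 2.19, 0.87 and 1.41 FPKM, from 14 to 31 counts. Psmb10, which replaces Psmb7, was at 5.91, 3.83 and 3.44 against 4.99, 4.02 and 4.34 FPKM. For each gene the groups overlapped; in Psmb8 wild-type library 1 fell within the knockout range and the other wild-type libraries above it. All 3 had a lower fitted mean in the knockout, with fitted log2 differences of -0.30 (SE 0.21), -0.14 (SE 0.35) and -0.10 (SE 0.17), and 0 passed. The interval for Psmb8 ran from -0.78 to 0.18 and that for Psmb9 from -0.95 to 0.66, so at these counts a 1.5-fold fall lies inside both intervals.

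Set against their standard counterparts in the same library, these subunits were a few percent of the transcripts per length. Psmb8 was 3.13%, 3.38% and 2.71% of Psmb5 in the knockout libraries and 3.09%, 4.08% and 3.78% in wild type. Psmb9 was 2.19%, 1.83% and 1.17% of Psmb6 against 2.71%, 0.995% and 1.87%. Psmb10 was 4.25%, 2.65% and 2.14% of Psmb7 against 3.66%, 2.77% and 2.97%. In wild type the standard subunit thus stood 27.5-fold, 54.5-fold and 32.0-fold above its counterpart for the pairs of Psmb8, Psmb9 and Psmb10. Mean ratios were 3.07% ± 0.34 in the knockout and 3.65% ± 0.51 in wild type for Psmb8, 1.73% ± 0.51 and 1.86% ± 0.86 for Psmb9, and 3.01% ± 1.11 and 3.13% ± 0.46 for Psmb10 (SD, n = 3 each). The ranges of the groups overlapped for each pair.

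**Figure D4:**
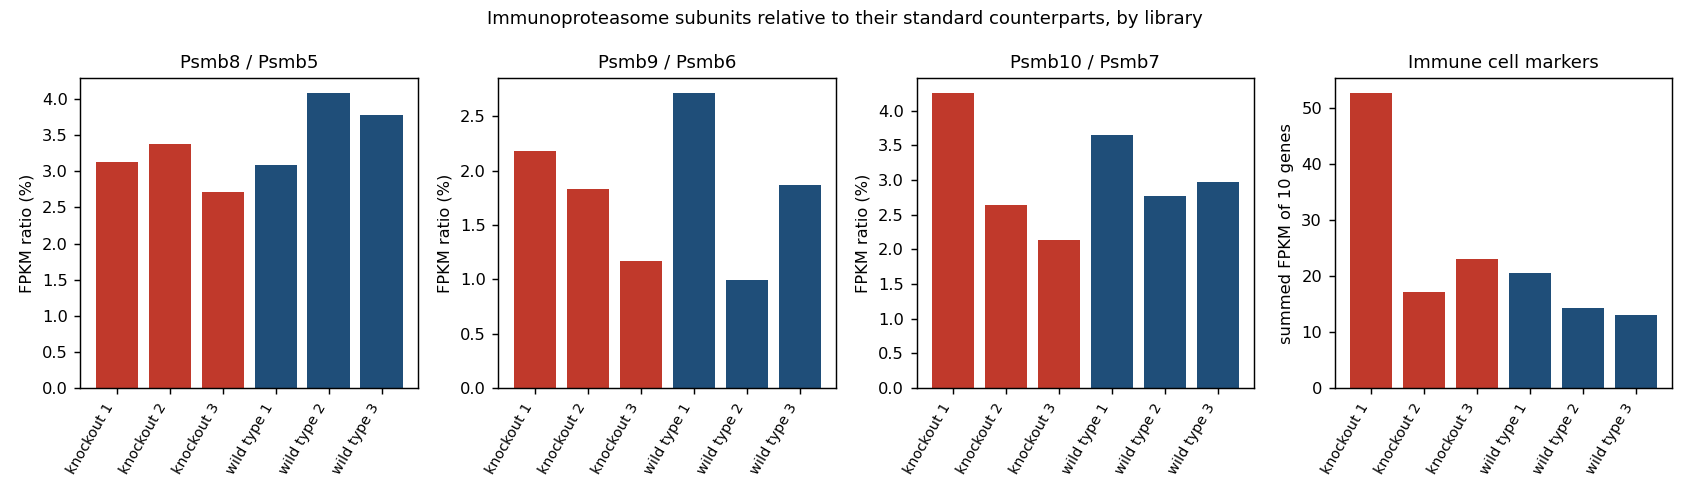
FPKM of each immunoproteasome subunit as a percentage of its standard counterpart, and summed FPKM of the 10 immune cell markers (y axes, from 0), in the 3 knockout libraries (red) and 3 wild-type libraries (blue). The ratios overlap between genotypes in all 3 pairs, and the immune markers are highest in knockout library 1, at 52.66 FPKM.

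PA28 alpha and beta, encoded by Psme1 and Psme2, form the activator ring that interferon induces, and were well above the immunoproteasome subunits. Psme1 was at 37.02, 26.91 and 21.26 FPKM with the deletion and 29.61, 20.42 and 24.15 FPKM in wild type, giving a log2 fold change of 0.12 (SE 0.16). Psme2 was at 18.09, 14.09 and 14.18 against 15.36, 14.68 and 14.66 FPKM, which gave a log2 fold change of -0.0041 (SE 0.10). Both were highest on FPKM in knockout library 1, the library with the most immune marker RNA, as was Psmb10. That library was highest on FPKM for 62.2% of all genes tested. The other interferon-linked members went otherwise: Psmb8 was highest in wild-type library 2 and Psmb9 in wild-type library 1, on FPKM and after TMM scaling. After TMM scaling Psme1 and Psmb10 were still highest in knockout library 1, and Psmb8 was lowest there. Psme2 then lay between 12.9 and 13.4 CPM and was highest in wild-type library 3. Of the 43 members 6 had fractional counts, which arise where reads are divided between loci, among them Psme2, so their values are less certain than the others.

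The letters of the interferon-stimulated response element core, GAAA, then 2 of any base, then GAAA, were found on either strand in 4 of the 36 member promoters (11.1%), those of Psmb3, Psmd4, Psmd9 and Psme1, against 3.99% of all genes. A STAT site, TTCNNNGAA, was found in 2 (Psmb8 and Psmd2), against 9.55% of all genes. Of the interferon-linked members with a promoter found, only Psme1 (response element core) and Psmb8 (STAT site) held a match to either motif. Counted from the start, the Psme1 match lies at bases 10 to 19, after it, and the Psmb8 match at -97 to -89. The windows of these 2 are shown, with the match in capitals.
Psme1 (chr14:55578493-55578522, plus strand): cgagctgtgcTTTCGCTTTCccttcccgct
Psmb8 (chr17:34198088-34198116, plus strand): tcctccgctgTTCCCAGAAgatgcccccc
Psmb8 and Psmb9 lie on chromosome 17 with 9956 bases between them, and Tap1, the peptide transporter gene of antigen presentation, lies in that gap on the plus strand, its first 212 bases overlapping the start of Psmb9, which is read from the minus strand. The sources used here do not say whether reads were counted by strand, and reads from that overlap cannot be told apart. In all, 18 members overlap an annotated gene on the opposite strand and 8 one on the same strand. Among them Psmb10 and Psmb8 overlap antisense genes and Psmb7 overlaps the kinase gene Nek6.

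Interferon and MHC class I genes, the usual companions of the immunoproteasome, had 14 of 16 members with a higher fitted mean in the knockout, a median log2 fold change of 0.13 against 0.0046 over all genes, and 0 past the adjusted threshold. An unadjusted p under 0.05 was reached upward by 2, B2m and Ifit3, where 2.07% of all genes did. B2m, the light chain of MHC class I, was at 96.65, 76.45 and 54.82 FPKM with the deletion and 57.26, 51.76 and 47.55 FPKM in wild type; edgeR fitted a difference of 0.46 in log2 (SE 0.14), with adjusted p = 0.994. Ifit3 differed by 0.45 (SE 0.19, log2). Both genes were also highest, on FPKM and after TMM scaling, in the library richest in immune markers. That library was highest for 62.2% of all genes tested on FPKM and for 29.9% after TMM scaling. Without it B2m differed by 0.37 and Ifit3 by 0.38 in log2, and neither passed the adjusted threshold. After TMM scaling every knockout library exceeded every wild-type library for both genes, as for 4.67% of all genes tested. The part of immune cells was not tested. The 3 immunoproteasome subunits had fitted means on the other side of 0; that difference between the lists was not tested.

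Of the activators that interferon does not induce, Psme3 (PA28 gamma, a nuclear ring) was at 32.67, 25.13 and 26.28 FPKM with the deletion and 26.84, 28.81 and 25.99 FPKM in wild type, giving a log2 fold change of -0.03 (SE 0.10). Psme4 (PA200) was at 59.3, 67.3 and 58.49 against 49.63, 66.82 and 57.01 FPKM, which gave a log2 fold change of 0.03 (SE 0.19), and its groups overlapped. PA200 transcripts were thus at a level like that of the 19S subunits, whose median in wild type was 61.9 FPKM for the ATPases and 58.9 FPKM for the others.

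The 3 assembly chaperones were at or below 7.44 FPKM in every library. Psmd10 (gankyrin) was at 3.72, 3.55 and 3.11 FPKM with the deletion and 2.67, 2.41 and 3.10 FPKM in wild type, barely separate on FPKM and overlapping after TMM scaling (log2 fold change 0.27, SE 0.18). Psmd9 was at 5.96, 6.53 and 5.91 against 7.16, 6.92 and 5.43 FPKM, which gave a log2 fold change of -0.14 (SE 0.15), and Psmd5 differed by -0.02 (SE 0.11, log2). Without knockout library 1 Psmd9 differed by -0.02. None passed.

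The subunits known from single tissues marked the lower end. Psmb11, the beta subunit of the thymic cortex, was at 0.42, 0.29 and 0.27 FPKM with the deletion and 0.34, 0.37 and 0.24 FPKM in wild type. Its counts, 18.82 to 29.75 per library, were fractional in all 6 (log2 fold change -0.08, SE 0.27). Psma8, the alpha subunit of the testis, had 1 count in knockout library 2 and was listed at 0 in the other 5 libraries, where a count of 0 allows up to 3 counts, or at most 0.185 CPM. It could not be tested.

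Partners of the proteasome outside the symbol rule did not pass the test either. Of 12 further subunits and bound factors 11 were found and tested: 0 passed, 3 had a higher and 8 a lower fitted mean, and those with the smallest p were Ublcp1 (a phosphatase of the proteasome), Fbxo7 and Psmf1 (the inhibitor PI31), with fitted log2 differences of 0.15 (SE 0.11), -0.24 (SE 0.17) and -0.13 (SE 0.12). Among 5 assembly factors of the core 0 passed, and Psmg3, Pomp and Psmg1 differed by -0.21 (SE 0.21), 0.10 (SE 0.11) and 0.08 (SE 0.14) in log2. Each of these lists had a median between -0.04 and 0.02.

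Ubiquitin genes and shuttle factors supply the proteasome with tagged substrates. Of 13 such genes 0 passed, and the median log2 difference was -0.02. Ubqln2, a shuttle of ubiquitinated proteins, and Ufd1, a cofactor of the segregase Vcp, differed by -0.16 (SE 0.08) and -0.14 (SE 0.12) in log2. Of 9 atrophy ubiquitin ligases 0 passed, and 1, Fbxo32 (atrogin-1), reached an unadjusted p under 0.05 upward, against 2.07% of all genes tested. Fbxo32 differed by 0.89 (SE 0.30, log2), or 0.52 without knockout library 2. Fbxo30 differed by 0.21 (SE 0.16), or 0.08 without knockout library 1, and Trim63 by 0.20 (SE 0.20). Leaving out library 2 of the knockout gave 0.03 for Trim63, and leaving out library 2 of the wild type gave 0.06.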

How the data were processed

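RNA-seq tables of 3 knockout and 3 wild-type gastrocnemius libraries were used. Per the file headers, each deposited table gives a read count and an FPKM value for 19458 genes. The deposited counts are expected counts, not normalized, and between 26.2% and 27.5% of them per library are not whole. FPKM values were calculated by the authors (fragments scaled to transcript length and library depth) and rounded to 2 decimals. HISAT2 2.0.4, Bowtie2 2.2.5, RSEM 1.2.12 and GRCm38 are named in the submitters' processing notes; the sources used here do not give their roles, the annotation, read filters or strand handling.

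Expected counts were rounded to whole numbers. Genes were kept by filterByExpr (minimum count of 10), scaled by TMM, which estimates a scaling factor from genes that are stable between libraries, and compared by the two-sided quasi-likelihood test of edgeR 4.0.16 in R 4.3.3. P-values of the 12774 genes tested were adjusted together by Benjamini-Hochberg, and 0.05 was the threshold. SEs were calculated from the fitted log2 fold change and the F statistic of the test. Intervals were calculated from these SEs and are at the 95% level. Depth was 16212341 to 18672630 expected counts per library. Every pair of libraries differed beyond counting noise (chi-square per degree of freedom at least 13.6).

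Members were taken by symbol and sorted by role. Members and lists were chosen with earlier results of these data known. Genes named in the text were Tmem182, any member past the threshold, the standard and immune catalytic subunits, the activators and the tissue-restricted members, and in each class the 2 with the smallest p and those with the highest and lowest mean FPKM. In each related list the 3 genes with the smallest p were named, except where a result is not reported here. GENCODE M21 on GRCm38 gave positions and overlapping genes, and promoters came from RefSeq on GRCm38.p6. Alternatives were DESeq2 1.42.0, limma 3.58.1 on log2(FPKM + 1) or log2(FPKM + 0.1), limma-voom with quality weights, DESeq2 size factors, other filters, a replicate block, an adjusted p of 0.10 and each library left out. Library totals in place of TMM were added after seeing the data.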

Additional observations from a re-analysis of the deposited data

How the results depend on the processing

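The count of 0 members past the adjusted threshold was the same under all 16 alternatives. Among all genes the count was 1 as reported, 6 with DESeq2, 0 with limma on log2(FPKM + 0.1), and between 0 and 1 with single libraries left out; it was 0 without knockout library 2 or wild-type library 3, where Tmem182 had adjusted p = 0.0716 and 0.0529. Members with an unadjusted p under 0.05 numbered 0 as reported and 1 (Psmb1) with limma-voom with library quality weights. With single libraries left out they numbered between 0 and 1 (Psmd14 without knockout library 1). Of all genes tested, 3.55% did so as reported, 7.90% with quality weights and 5.11% without knockout library 1. A single member is 2.38% of those tested. Without a filter on low counts the median of the tissue-restricted class was 0.90, because Psma8 then entered the test with its single count. No other class median, and no difference in the ratios of immune to standard subunits, moved by more than the spread between libraries.

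Among the members whose direction turned over, none passed in either direction. The lists below cover only the members picked by the naming rules, so they are not complete. Over all 42 tested members, 17 were higher and 25 lower as reported. The split was 33 and 9 with library totals, and 34 and 8 with limma on FPKM at either added constant. It was 31 and 11 with quality weights. With library totals in place of TMM, chosen after seeing the data, log2 fold changes were 0.057 for Psmc3, 0.043 for Psme3, 0.068 for Psme2, 0.041 for Psmb7, 0.018 for Psmb6 and Psma5, and 0.012 for Psmb5. With limma on log2(FPKM + 1) they were 0.059 for Psmc3, 0.019 for Psma5, 0.010 for Psmb11, 0.033 for Psme3, 0.041 for Psme2, 0.013 for Psmb5, 0.018 for Psmb6 and 0.054 for Psmb7, and with log2(FPKM + 0.1) 0.060, 0.020, 0.031, 0.034, 0.043, 0.013, 0.018 and 0.054 for the same genes. With quality weights they were 0.034 for Psmd9, 0.046 for Psmb7, 0.060 for Psma5, 0.015 for Psmb6 and 0.077 for Psmc3, and with a mean of at least 5 FPKM 0.0010 for Psmc3 and 0.0035 for Psme2. The cause was not tested.

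Ranges over single libraries left out were likewise taken only for the members picked by the naming rules. Those that crossed 0 were -0.10 to 0.057 for Psma5, -0.0068 to 0.22 for Psma6, -0.22 to 0.060 for Psmb11, -0.10 to 0.014 for Psmb5, -0.16 to 0.045 for Psmb6, -0.14 to 0.12 for Psmb7, -0.38 to 0.16 for Psmb9, -0.077 to 0.082 for Psmc3, -0.00080 to 0.24 for Psmd14, -0.028 to 0.28 for Psmd8, -0.020 to 0.0084 for Psme2, -0.089 to 0.024 for Psme3 and -0.11 to 0.16 for Psme4. Ranges on 1 side of 0 that moved by over 1.5 times included -0.23 to -0.02 for Psmd9, -0.25 to -0.011 for Psmb10, -0.17 to -0.046 for Psmd3, -0.37 to -0.11 for Fbxo7, -0.54 to -0.08 for Ddi2, 0.08 to 0.30 for Fbxo30 and 0.03 to 0.36 for Trim63. They also included 0.0074 to 0.23 for Psme1, 0.017 to 0.17 for Psmb4, 0.050 to 0.21 for Psma1 and 0.048 to 0.17 for Psmb1. Further ones were -0.42 to -0.19 for Psmb8, -0.14 to -0.031 for Psmc4, 0.087 to 0.20 for Psmc6 and 0.20 to 0.41 for Psmd10.

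The labels do not say whether same-numbered libraries are paired. Deviations from the group means correlated at 0.52, 0.18 and -0.12 across genes for numbers 1, 2 and 3. Knockout libraries 1 and 2 correlated best with the wild-type library of their own number. Knockout library 3 correlated best with wild-type library 2 (0.43). Whether the libraries are paired was not tested. With the replicate number as a block 1 gene passed, as without it, 0 members passed and 0 reached an unadjusted p under 0.05. Counts of 14 to 68 limit what can be said of Psmb8 and Psmb9.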
